A study of Arabis alpina with 19 samples.

Results

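A set of 98 transcripts was on average higher in both internodes of the annual stem zone than in the perennial zone at every age sampled. The transcripts were taken from 30158 targets quantified by RNA sequencing in lateral stems of Arabis alpina. The mean abundance of each target was computed for 6 groups in TPM (transcript abundance scaled for transcript length and for library size) and put on the scale log2(TPM + 1). The 6 values of a target were sorted, and a member was a target whose largest step between neighbouring values, its gap, was at least 1 with exactly the 2 annual groups above it, each at a mean of at least 5 TPM. The rule would have kept the 150 largest gaps, but 98 targets met it, so all were kept. A further condition left I_PZ replicate 3 out of its group mean, as a library taken to hold transcripts of the 7-week group (III_PZ). A list of 83 targets had no count in I_PZ replicates 1 and 2 or in the 5-week libraries (II_PZ). Their mean in III_PZ was 5 TPM or more. Of these, 58 had a count in I_PZ replicate 3, and the median over the 83 was 8.23% of the III_PZ mean. The list was chosen by the absence of counts in replicates 1 and 2, and no like list was made for either of them. It is therefore a description and no test. Without the limits on gap and level, 611 targets had the 2 annual groups as the upper side of their largest gap.

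All plants carried the pep1-1 allele (perpetual flowering 1-1), so the series holds no wild type. Each replicate came from 12 plants grown in days of 16 h light and 8 h dark, and every library was made from lateral stems that grew at the first and the second node of the main axis. The annual zone was sampled at 30 weeks, from 2 places: 4 libraries (IV_AZ_si) hold short internodes and 3 libraries (IV_AZ_if) hold internodes near the inflorescence. The perennial zone was sampled as its whole first internode in 3 libraries per age, named I_PZ at 4 weeks, II_PZ at 5 weeks, III_PZ at 7 weeks and IV_PZ at 30 weeks. Libraries held 21032841 to 27999048 estimated counts each, spread over 23259 to 25054 targets.

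Arabis alpina is an alpine perennial relative of Arabidopsis. PEP1 is its orthologue of the floral repressor FLC, which keeps shoots vegetative until a long cold period, and pep1 mutants flower without cold and go on flowering. In the flowering branches of this species the lower part persists and thickens by a cambium, while the upper part, which bears the flowers, dies back after fruiting. The target identifiers are not paired with gene names in the sources used here, so members are given by identifier, no function is assigned to any of them, and markers of tissues or pathways were not analysed here.

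Members were chosen by their group means in TPM, the values given next, so the contrast of annual with perennial groups is described without a test. The median over the 98 members of the group mean was 23.7 TPM in IV_AZ_si and 24.9 TPM in IV_AZ_if, against 2.14 TPM in I_PZ, 3.25 TPM in II_PZ, 3.04 TPM in III_PZ and 1.95 TPM in IV_PZ. The lower of the 2 annual means was a median of 3.43 times the highest perennial mean. Gaps ran from 1.02 to 4.89 with a median of 1.56, and 67 members had a gap under 2, 25 a gap from 2 to under 3, and 6 a gap of 3 or more. Together the members took 0.594% ± 0.0626 (SD, n = 4) of all TPM in IV_AZ_si and 0.634% ± 0.0687 (SD, n = 3) in IV_AZ_if. The same sum was 0.107% ± 0.000734 (SD, n = 2) in I_PZ, 0.158% ± 0.0127 (SD, n = 3) in II_PZ, 0.140% ± 0.0112 (SD, n = 3) in III_PZ and 0.0909% ± 0.0019 (SD, n = 3) in IV_PZ. In such bulk samples fewer cells of a type and less RNA per cell cannot be told apart.

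**Figure D1:**
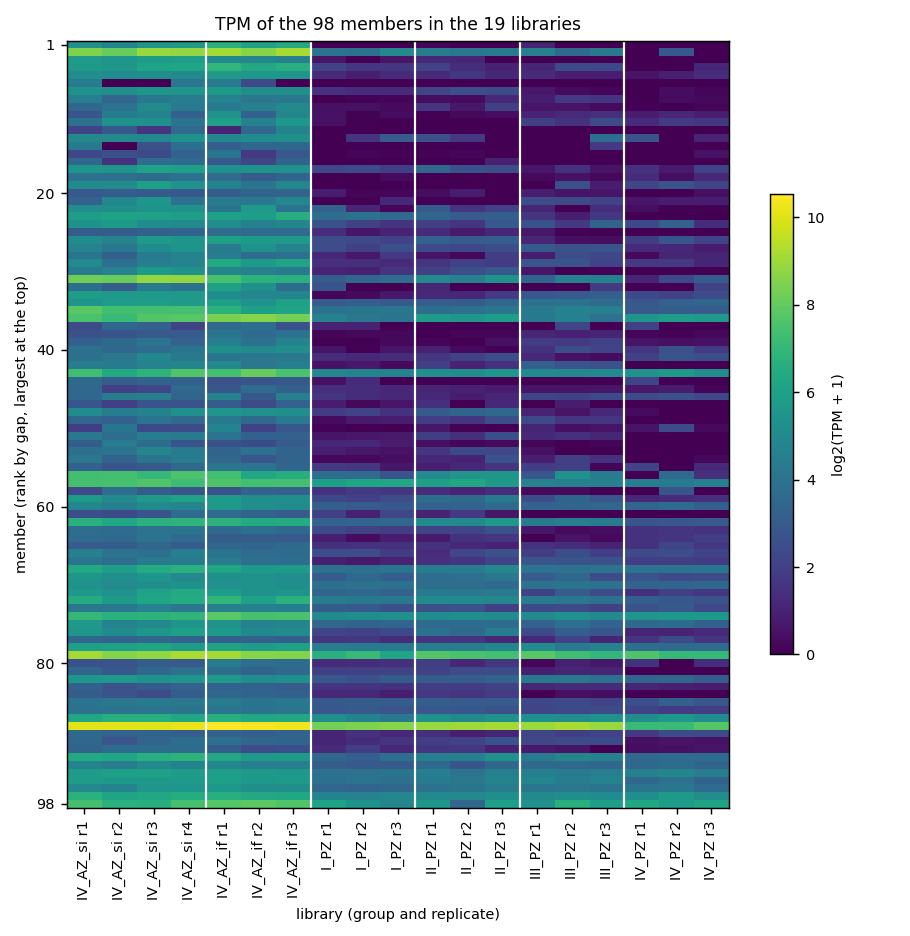
Abundance of the 98 members (rows, ordered by gap with the largest at the top) in the 19 libraries (columns), as log2(TPM + 1) in colour, with white lines between groups. The 7 annual columns on the left are brighter than the 12 perennial columns for most rows, and the rows near the bottom keep a visible level in the perennial zone.

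The transcripts were higher in the annual zone but were not confined to it. Of the 98 members, 54 had a count in all 12 perennial libraries and 2 had none in any of them. A mean of at least 5 TPM was reached by 34 members in I_PZ, 37 in II_PZ, 35 in III_PZ and 26 in IV_PZ. No count in any library of the group was found for 7 members in I_PZ, 9 in II_PZ, 7 in III_PZ and 18 in IV_PZ. For 92 members every annual library lay above every perennial library, I_PZ replicate 3 included, and for 6 members the libraries overlapped. Over the whole table this held for 2.37% of the targets, a figure that cannot be read against the members, since the rule chose them by this contrast.

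**Figure D2:**
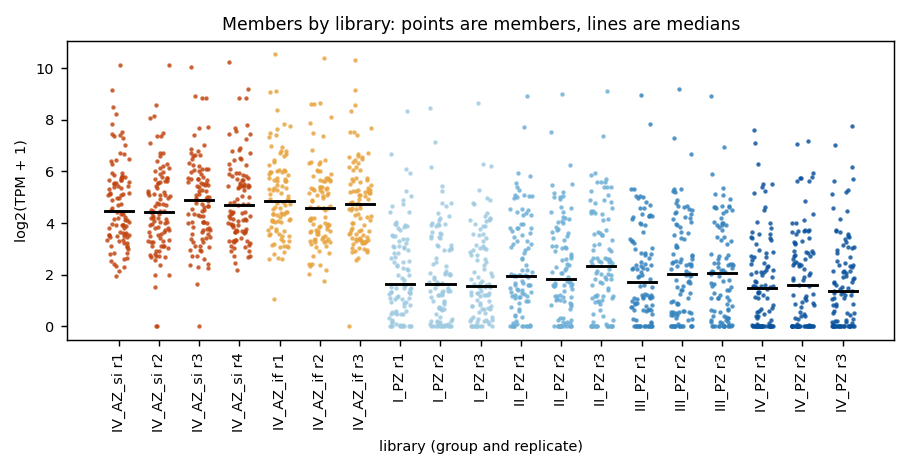
Each point is 1 member in 1 library, on the log2(TPM + 1) scale, and each black line is the library's median over the 98 members. The annual libraries (reds and yellows) have medians between 4 and 5, and the perennial libraries (blues) have medians under 2.5 with more points at 0 at 30 weeks.

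Target lengths of the members had a median of 849 bases (126 to 4524), against 963 bases over all 30158 targets and 1005 bases over the 14641 targets that averaged 5 TPM or more in both annual groups. Reads shared with other targets, seen as counts that are not whole, occurred for 24 members, or 24.5%, against 18.4% of all targets and 19% of those 14641. Some short members rest on few reads, since TPM divides by effective length, the part of a target where a sequenced fragment can start. It was 24.1 bases for Aa_G862480.h1 (216 bases), 20.9 for Aa_G52470.h1 (210 bases) and 7.01 for Aa_G198440.h1 (150 bases). The TPM of these targets depend strongly on that value. A total of 15 members were shorter than 300 bases, and 8 of these had fewer than 100 counts over all libraries of an annual group. Among the 98 members, 42 averaged under 20 TPM over the 2 annual groups, 45 averaged 20 to 100 TPM, and 11 averaged 100 TPM or more.

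Aa_G573550.h1 (2292 bases) had the largest gap of all members, 4.89. It had 38.7, 25.7, 44.0 and 52.3 TPM in the IV_AZ_si libraries and 104, 66.1 and 85.0 TPM in those of IV_AZ_if. In the perennial zone it was at 0 in I_PZ replicates 1 and 2, at 0.0909, 0 and 0 TPM in II_PZ, at 1.15, 0 and 0.0224 TPM in III_PZ and at 0 in all 3 libraries of IV_PZ. Its 7 annual libraries thus stood apart from the perennial ones, whose single visible value was that of III_PZ replicate 1. Against a floor of 3 counts over the IV_PZ libraries, it was at least 3476-fold higher in IV_AZ_si and at least 7048-fold higher in IV_AZ_if.

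The second largest gap, 4.30, belonged to Aa_G862480.h1, a short target of 216 bases. Its libraries had 359, 271, 482 and 456 TPM in IV_AZ_si and 543, 395 and 568 TPM in IV_AZ_if, while the 12 perennial libraries had a lowest value of 0, a median of 16.2 and a highest value of 30.3 TPM. These levels rest on 1518 and 1467 counts in the 2 annual groups and on 7 counts in IV_PZ, where replicate 2 held all of them.

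Aa_G417010.h1 (303 bases, gap 3.94) stood higher in the short internode, at 54.4, 45.5, 54.3 and 57.7 TPM in IV_AZ_si and 29.4, 28.5 and 23.2 TPM in IV_AZ_if. It was at 0.472 and 0 TPM in I_PZ replicates 1 and 2, at 1.31, 1.17 and 0 TPM in II_PZ and at 0 in every library of III_PZ and IV_PZ. The perennial values are those of 2 counts in I_PZ and 10 in II_PZ. The 2 annual groups did not overlap, but their difference missed the threshold in edgeR's quasi-likelihood test (log2 fold change 0.80 ± 0.35, SE; adjusted p = 0.0784). The difference passed in DESeq2 (adjusted p = 0.0056), in limma on log2(TPM + 1) (0.00319), with size factors of the TPM scale (0.0338) and with only the 2 groups (0.0029). Over all 17 alternatives the adjusted p ran from 0.0029 to 0.2925.

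Aa_G837900.h1 and Aa_G37950.h1 both share reads with other targets, so their levels are uncertain. Aa_G837900.h1 (gap 3.92) had 49.8, 46.5, 68.0 and 74.2 TPM in IV_AZ_si and 122, 80.3 and 95.4 TPM in IV_AZ_if, while the 12 perennial libraries had a lowest value of 0, a median of 1.87 and a highest value of 4.05 TPM. Aa_G37950.h1 (gap 3.72) had 34.3, 32.8, 37.1 and 32.1 TPM in IV_AZ_si and 50.5, 48.2 and 44.8 TPM in IV_AZ_if, while the 12 perennial libraries had a lowest value of 0.46, a median of 1.32 and a highest value of 2.28 TPM. Every IV_AZ_if library exceeded every IV_AZ_si library for both targets.

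Aa_G294520.h1 (gap 2.97) stood at similar levels in the 2 annual internodes, with 41.9, 36.7, 46.7 and 43.8 TPM in IV_AZ_si and 49.0, 35.5 and 37.0 TPM in IV_AZ_if, and the 12 perennial libraries had a lowest value of 0, a median of 1.07 and a highest value of 5.01 TPM. Aa_G193900.h1 (gap 2.79) had 21.5, 9.83, 18.3 and 20.6 TPM in IV_AZ_si and 23.8, 17.2 and 18.1 TPM in IV_AZ_if, and the 12 perennial libraries had a lowest value of 0, a median of 0.231 and a highest value of 2.33 TPM. For both of them the annual groups overlapped each other and neither annual group overlapped the perennial libraries.

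**Figure D3:**
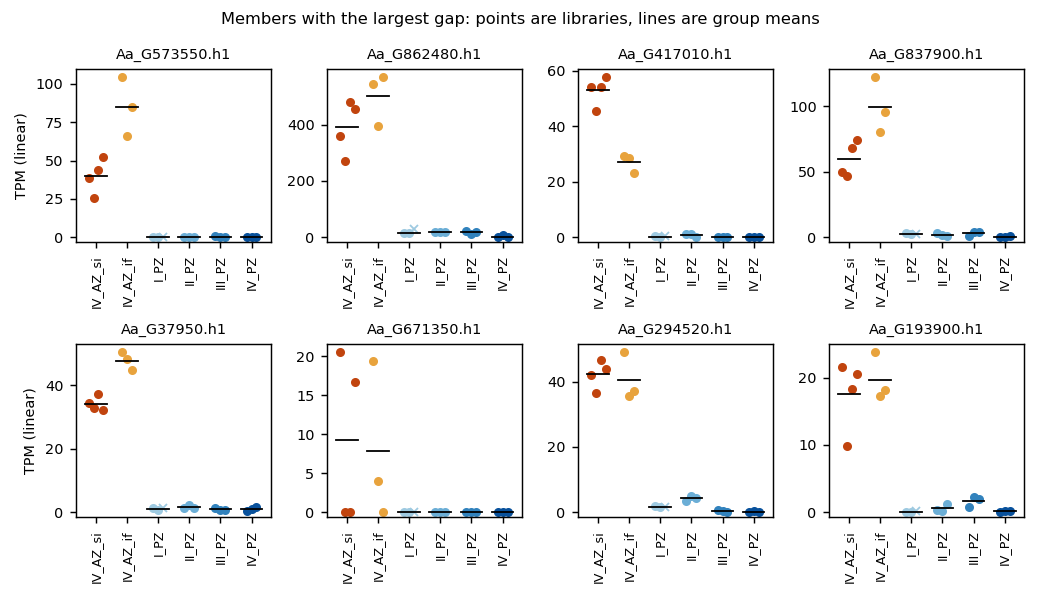
TPM on a linear scale for the 8 members with the largest gap, with 1 point per library and a line at each group mean (for I_PZ the mean of replicates 1 and 2, with replicate 3 drawn as a cross). In 7 panels all annual points lie above all perennial points, and in that of Aa_G671350.h1 annual libraries are also at 0.

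The 2 members with no count in any of the 12 perennial libraries are both short. Aa_G671350.h1 (126 bases) had 20.5, 0, 0 and 16.7 TPM in IV_AZ_si and 19.4, 4.07 and 0 TPM in IV_AZ_if, but these are 8 counts and 5 counts in all, and 3 annual libraries were at 0. It did not pass the filter on low counts. Aa_G365750.h1 (216 bases) had 3.41, 6.49, 2.1 and 11.1 TPM in IV_AZ_si and 1.07, 10.8 and 26.1 TPM in IV_AZ_if, from 23 and 37 counts. Against the floor of 3 counts over IV_PZ it was at least 5.90-fold higher in IV_AZ_si and at least 12.1-fold higher in IV_AZ_if. Depth is thus the limit for this pair, and a low level in the perennial zone was not detectable.

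The 6 members whose annual and perennial libraries overlapped were Aa_G671350.h1, Aa_G556020.h1, Aa_G567750.h1, Aa_G524360.h1, Aa_G718350.h1 and Aa_G938920.h1, named here after their values were seen. Aa_G556020.h1, with 15 counts in IV_AZ_si and 12 in IV_AZ_if, was the other member that did not pass the filter. The lowest annual library was at 3.49 TPM for Aa_G567750.h1, 2.87 TPM for Aa_G524360.h1 and 4.06 TPM for Aa_G718350.h1, under the highest perennial libraries of 3.6, 4.23 and 5.65 TPM.

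Apart from Aa_G862480.h1, the most abundant members by TPM were not those with the largest gaps. The ranking rests on effective length as well as on counts. Aa_G52470.h1 had 3707 counts in IV_AZ_si, while Aa_G453050.h1 (2115 bases) had 55344 there at a mean of 183 TPM. Aa_G52470.h1 (210 bases) had 1107, 1101, 1048 and 1189 TPM in IV_AZ_si and 1479, 1354 and 1269 TPM in IV_AZ_if. It was also abundant in the perennial zone, at 323 and 346 TPM in I_PZ replicates 1 and 2, 485, 506 and 550.1 TPM in II_PZ, 493, 582 and 484 TPM in III_PZ and 136, 144 and 213 TPM in IV_PZ, and its gap was 1.1. This target alone held 17% to 21.6% of the members' summed TPM in the IV_AZ_si libraries and 20.7% to 23.0% in those of IV_AZ_if, and 15.2% to 38.3% in the 12 perennial libraries.

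Aa_G198440.h1 (150 bases) had 559.8, 380.1, 455 and 579 TPM in IV_AZ_si and 547, 388 and 374 TPM in IV_AZ_if, while the 12 perennial libraries had a lowest value of 72.0, a median of 148 and a highest value of 224 TPM. Aa_G167730.h1 had 181, 136, 208 and 224 TPM in IV_AZ_si and 331, 387 and 318 TPM in IV_AZ_if, while the 12 perennial libraries had a lowest value of 14.2, a median of 34.2 and a highest value of 59.6 TPM. Aa_G127180.h1, which shares reads, had 301, 281, 453 and 457 TPM in IV_AZ_si and 177, 112 and 101 TPM in IV_AZ_if, while the 12 perennial libraries had a lowest value of 1.16, a median of 11.8 and a highest value of 41.3 TPM. With Aa_G862480.h1 these 4 made up the 5 highest members by the mean of the 2 annual groups, and in none of the 5 did annual and perennial libraries overlap.

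The members nearest the limits of the rule show how its thresholds cut. Just inside the gap limit were Aa_G385700.h1 at 1.03, Aa_G68140.h1 at 1.02 and Aa_G938920.h1 at 1.02, with perennial libraries up to 21.1, 52.3 and 102 TPM. Just outside it were Aa_G139480.h1 at 1.00 (0.99978 before rounding), Aa_G15850.h1 at 0.987 and Aa_G224870.h1 at 0.984. Aa_G224870.h1 averaged 919 TPM in IV_AZ_si and 746 TPM in IV_AZ_if, and at most 377 TPM in a perennial group. The level limit left out Aa_G852580.h1, Aa_G543610.h1 and Aa_G649660.h1, which had gaps of 2.58, 2.50 and 2.37 and means of 0 TPM in all 4 perennial groups. Their means were 5.00 (4.998 before rounding), 4.65 and 4.19 TPM in IV_AZ_si and 7.30, 6.21 and 7.98 TPM in IV_AZ_if.

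I_PZ replicate 3 took no part in choosing the members, but the rule kept the mean of the other I_PZ libraries and that of III_PZ below the annual means. Its position is therefore a description and no separate check. The library lay below both annual means for all 98 members and below every annual library for 96, the exceptions being Aa_G671350.h1 and Aa_G556020.h1, which were at 0 in annual libraries too. It was above both other I_PZ libraries for 39 members, below both for 36 and between or level for 23. The largest departures were Aa_G258350.h1, at 7.23 TPM against 0 and 2.11 TPM in replicates 1 and 2, and Aa_G431480.h1, at 0.132 TPM against 9.32 and 1.18 TPM. The first of these rests on 2 counts in replicates 1 and 2 together.

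The short internode was next compared with the internode near the inflorescence, a difference whose size the rule limits to less than the gap but whose direction it leaves free. Of the 96 members tested, 20 differed between the annual internodes in edgeR's quasi-likelihood test (adjusted p under 0.05 over 23904 targets), 3 of them higher and 17 lower in IV_AZ_si. That is 20.8% of the members, against 47.4% of all targets tested, where 22.8% were called higher and 24.6% lower in IV_AZ_si. Among tested targets with the members' minimum level, a mean of 5 TPM or more in both annual groups, 52.5% were called, 24.0% higher and 28.5% lower. The members' median log2 fold change was -0.21, with a range from -1.75 to 1.35, against a median of 0.02 over all targets. In CPM scaled by TMM, 29 of the 96 members had no overlap between the libraries of the 2 internodes, against 49.1% of all targets, and in TPM it was 27, against 51.6%. Neither all targets nor those at 5 TPM or more carry the rule's limit on this difference. The members' smaller shares can therefore not be read against theirs.

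The balance of directions rested on the scale and shifted less with single libraries. Leaving out 1 library gave 3 to 6 members higher and 10 to 18 lower, with more lower than higher in each fit. With size factors of the TPM scale, which moved the median of all targets to 0.19, 8 members were called higher and 9 lower in IV_AZ_si, and the members' median was -0.04. The split over all targets moved too, to 32.8% higher and 18.1% lower. Without IV_AZ_if replicate 1 the counts were 6 higher and 10 lower, against 20.5% and 23.2% of all targets. Without IV_AZ_si replicate 2 they were 4 higher and 11 lower, against 20.3% and 22.8%. IV_AZ_if replicate 1 was the highest of its group for 64 members, a count with no share over all targets beside it, and IV_AZ_si replicate 2 was the lowest of its group for 54. IV_AZ_si replicate 2 was also the lowest for 30.9% of the 14641 targets with at least 5 TPM in both annual groups. 

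Higher in the short internode was Aa_G127180.h1, at 301, 281, 453 and 457 TPM in IV_AZ_si against 177, 112 and 101 TPM in IV_AZ_if, a log2 fold change of 1.35 ± 0.35 (SE, edgeR adjusted p = 0.00444). Aa_G453050.h1 had 229.9, 162, 167 and 172 TPM in IV_AZ_si and 109, 63.2 and 70.3 TPM in IV_AZ_if, a log2 fold change of 1.00 ± 0.16 (SE, edgeR adjusted p = 7.55e-05). Aa_G329800.h1 had 59.4, 50.5, 50.8 and 50.7 TPM in IV_AZ_si and 33.6, 28.2 and 26.4 TPM in IV_AZ_if, a log2 fold change of 0.67 ± 0.17 (SE, edgeR adjusted p = 0.00323). In each of these 3, all 4 libraries of IV_AZ_si exceeded all 3 of IV_AZ_if.

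Lower in the short internode were 17 members, with the largest difference in Aa_G241830.h1, which shares reads. It had 32.5, 13.6, 21.9 and 25.3 TPM in IV_AZ_si and 84.9, 52.8 and 70.6 TPM in IV_AZ_if, a log2 fold change of -1.75 ± 0.24 (SE, edgeR adjusted p = 1.57e-05). Aa_G214090.h1 had 14.4, 10.4, 11.7 and 16.2 TPM in IV_AZ_si and 38.4, 30.6 and 36.2 TPM in IV_AZ_if (log2 fold change -1.58 ± 0.35, SE; edgeR adjusted p = 0.00135). Aa_G266300.h1 had 5.11, 5.60, 6.74 and 7.17 TPM in IV_AZ_si and 16.1, 11.7 and 14.1 TPM in IV_AZ_if (log2 fold change -1.35 ± 0.22, SE; edgeR adjusted p = 7.38e-05). In none of these 3 did the libraries of the 2 internodes overlap. The calls of Aa_G241830.h1 and Aa_G266300.h1 held under the 16 and 17 alternatives that gave them a value, and that of Aa_G214090.h1 held under 16 of 17 and was lost in limma on log2(TPM + 0.1), at an adjusted p of 0.0509.

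Aa_G530010.h1, at 5.30, 5.44, 7.72 and 6.63 TPM in IV_AZ_si and 19.5, 12.6 and 12.0 TPM in IV_AZ_if, was called with a log2 fold change of -1.39 ± 0.52 (SE, edgeR adjusted p = 0.0364). Its adjusted p was above 0.05 on leaving out IV_AZ_si replicates 1, 2 and 4 (0.0809, 0.0735 and 0.0585) and IV_AZ_if replicates 1, 2 and 3 (0.141, 0.0591 and 0.0504), and it ran from 0.00112 to 0.248 over 17 alternatives. Among the 8 members with the largest gaps 3 were called between the internodes, and each lost its call under some alternatives. Aa_G573550.h1 (log2 fold change -1.25 ± 0.45, SE; edgeR adjusted p = 0.0334) lost its call without IV_AZ_si replicates 1, 2 and 3 (adjusted p = 0.0702, 0.0708 and 0.0549) and without IV_AZ_if replicates 1 and 3 (0.101 and 0.066). The 17 alternatives gave adjusted p-values of 0.00129 to 0.596, the highest in DESeq2.

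Aa_G837900.h1 (log2 fold change -0.90 ± 0.34, SE; edgeR adjusted p = 0.0382) lost its call without the same 5 libraries, in their order at adjusted p = 0.0945, 0.0854, 0.0522, 0.156 and 0.0737. The 16 alternatives that gave it a value had adjusted p-values of 0.00367 to 0.416. Aa_G37950.h1, with its log2 fold change of -0.66 ± 0.21 (SE, edgeR adjusted p = 0.0154), kept its call in 14 of 16 alternatives and lost it with size factors of the TPM scale (adjusted p = 0.0613) and in limma on log2(TPM + 0.1) (adjusted p = 0.208). Among the abundant members, Aa_G167730.h1 was lower in IV_AZ_si by a log2 fold change of -1.06 ± 0.17 (SE, edgeR adjusted p = 7.57e-05) and Aa_G52470.h1 by one of -0.47 ± 0.12 (SE, edgeR adjusted p = 0.00434). The call of Aa_G52470.h1 was lost in limma on log2(TPM + 1) and on log2(TPM + 0.1), at adjusted p-values of 0.0656 and 0.0684. Aa_G862480.h1 (log2 fold change -0.52 ± 0.28, SE; edgeR adjusted p = 0.134) and Aa_G198440.h1 (log2 fold change 0.01 ± 0.24, SE; edgeR adjusted p = 0.991) were not called.

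**Figure D4:**
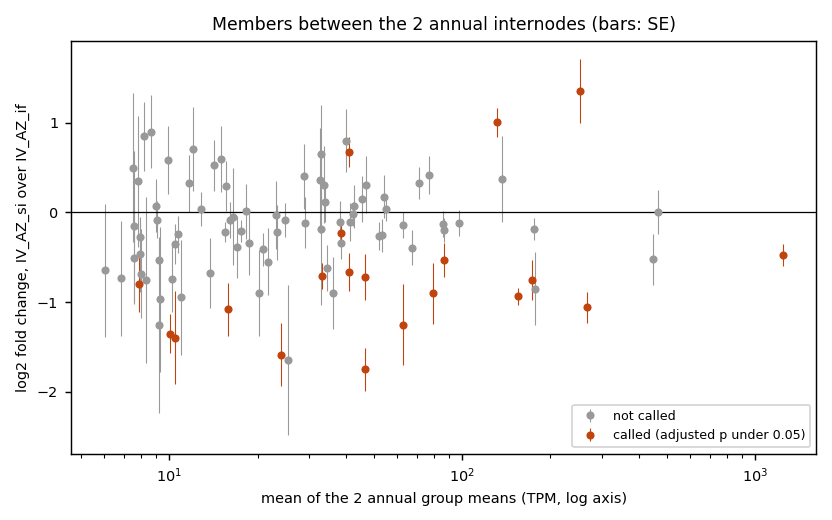
Log2 fold change of each tested member in IV_AZ_si over IV_AZ_if (edgeR, bars are SE) against the mean of its 2 annual group means in TPM on a log axis, with called members in orange. The 3 orange points above 0 lie at 0.67 to 1.35 and the 17 below 0 reach down to -1.75.

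Within the perennial zone the members' lower levels also varied with age. The group mean was highest at 4 weeks for 15 members, at 5 weeks for 37, at 7 weeks for 29 and at 30 weeks for 17. It was lowest at 4 weeks for 28 members, at 5 weeks for 16, at 7 weeks for 14 and at 30 weeks for 40. Equal means were counted at the youngest of the tied ages. Aa_G671350.h1 and Aa_G365750.h1, without a count in any perennial library, therefore stand at 4 weeks in both tallies. The 28 lowest at 4 weeks are thus an upper limit, and the 40 lowest at 30 weeks a lower limit. These tallies have no share over all targets beside them. The rule sets a ceiling on the highest perennial mean and leaves the order of the ages free. It also keeps each step between neighbouring values among the perennial means smaller than the gap, a limit that all targets do not carry. A member may enter the test of a step through the counts of other groups alone, the annual ones among them, and then has few or no counts to differ by. Each step therefore also has its counts over the members that pass the filter on low counts in that step's own libraries. Successive steps share the libraries of II_PZ and III_PZ, so the steps are not independent of each other.

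Between 4 and 5 weeks 25 of the 96 members tested differed, 24 higher and 1 lower in II_PZ (26.0%), against 14.3% of all targets, 8.29% called higher and 5.99% lower. Of the 77 members that pass the filter in these libraries alone, 23 were higher and 1 lower (31.2%), against 15.7% of all such targets, 9.08% higher and 6.58% lower. The members' median log2 fold change was 0.48, against 0 over all targets. This count depended on single libraries, as did the share over all targets. Without II_PZ replicate 3 it was 13 higher and 0 lower, against 4.92% and 3.25% of all targets. Leaving out I_PZ replicate 1 or 2 left that group with 1 library, and fewer members and targets were called there. The median over members was 0.57 without I_PZ replicate 1, 0.42 without I_PZ replicate 2 and 0.39 without II_PZ replicate 3. With I_PZ replicate 3 added, 32 members were called higher and 1 lower, against 9.33% and 6.78% of all targets.

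Aa_G329800.h1 had 1.22, 1.27 and 2.52 TPM in II_PZ and 0.113 and 0.204 TPM in I_PZ, a log2 fold change of 3.40 ± 0.43 (SE, edgeR adjusted p = 0.000203). Aa_G8710.h1 had 1.23, 1.05 and 5.26 TPM in II_PZ and 0.176 and 0.158 TPM in I_PZ, a log2 fold change of 3.93 ± 0.92 (SE, edgeR adjusted p = 0.0087). II_PZ replicate 3 held most of that rise, and without it the log2 fold change was 2.76. The call of Aa_G8710.h1 was lost without I_PZ replicate 1 (adjusted p = 0.0854) and without I_PZ replicate 2 (adjusted p = 0.105), and over 15 alternatives the adjusted p ran from 5.55e-05 to 0.105.

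The 1 member lower in II_PZ, Aa_G26950.h1, had 0.349, 0.117 and 0.199 TPM in II_PZ and 1.22 and 1.35 TPM in I_PZ (log2 fold change -2.48 ± 0.63, SE; edgeR adjusted p = 0.0154). Its adjusted p was above 0.05 without I_PZ replicates 1 and 2 (0.0676 and 0.0967) and without II_PZ replicates 2 and 3 (0.053 and 0.061) and in limma on log2(TPM + 1) (0.0823), and ran from 0.000725 to 0.0967 over 15 alternatives. At the later ages it was at 0.128, 0 and 0.113 TPM in III_PZ and at 0 in all 3 libraries of IV_PZ.

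Between 5 and 7 weeks 49 members differed, 14 higher and 35 lower in III_PZ (51.0%), against 56.5% of all targets, 28.3% called higher and 28.2% lower. The 79 members that pass the filter in these libraries alone gave 12 higher and 32 lower (55.7%), against 59.8% of all such targets, 30.0% higher and 29.8% lower. Another 5 calls, 2 higher and 3 lower, fell on members that entered through other groups. The members' median log2 fold change was -0.34, or -0.30 with members that had no count in 1 group set to their bound, against 0.02 over all targets. With size factors of the TPM scale, which moved the median of all targets to 0.22, 19 members were higher and 32 lower, against 37.0% and 21.4% of all targets.

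Aa_G551970.h1 had 4.36, 4.37 and 3.35 TPM in III_PZ and no count in II_PZ, which is at least 180.1-fold higher when II_PZ is set to the floor of 3 counts (edgeR adjusted p = 8.69e-06). Aa_G560100.h1, which shares reads, had 3.01, 1.85 and 4.43 TPM in III_PZ and no count in II_PZ, at least 32.6-fold higher (edgeR adjusted p = 0.000269). Its lack of counts in II_PZ and its bound depend on how the shared reads were divided between targets. At 30 weeks Aa_G551970.h1 and Aa_G560100.h1 were at 0.575, 0.801 and 0.814 TPM and at 1.47, 2.64 and 2.26 TPM in the 3 IV_PZ libraries. In I_PZ Aa_G551970.h1 was at 1.32 TPM in replicate 3, against 0 and 0.0578 TPM in replicates 1 and 2. Its annual levels were higher than all of these, at 9.06, 29.5, 43.5 and 14.5 TPM in IV_AZ_si and 19.2, 17.7 and 29.3 TPM in IV_AZ_if.

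In the other direction, Aa_G332180.h1 had no count in III_PZ and 0.988, 2.39 and 0.54 TPM in II_PZ, at least 14.3-fold lower in the later group (edgeR adjusted p = 0.000614). It is 1 of the 5 called members that entered this test through other groups, and its II_PZ libraries held 10, 27 and 6 counts. Without II_PZ replicate 2 the bound was 8.29-fold. Aa_G110390.h1 had 0.391, 0 and 0 TPM in III_PZ and 2.07, 4.22 and 3.70 TPM in II_PZ, a log2 fold change of -4.83 ± 0.68 (SE, edgeR adjusted p = 1.86e-05). Its III_PZ level is 5 counts, all in replicate 1. Without that library it was at least 31.0-fold lower, and without III_PZ replicate 3 the log2 fold change was -4.23. Both targets had no count in IV_PZ.

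Between 7 and 30 weeks 50 members differed, 12 higher and 38 lower in IV_PZ (52.1%), against 55.0% of all targets, 25.0% called higher and 30.0% lower. The 65 members that pass the filter in these libraries alone gave 9 higher and 31 lower (61.5%), against 58.0% of all such targets, 27.0% higher and 31.0% lower. Another 10 calls, 3 higher and 7 lower, fell on members that entered through other groups. The members' median log2 fold change was -0.50, also with members at their bound, against -0.01 over all targets. Of the 38 members called lower, 8 had no count in any IV_PZ library. For 3 of the 50 calls a single library held at least 90% of the counts of the higher group, and these members are named after their values were seen. Aa_G573550.h1, 1 of the 8, was called lower on 92 counts in III_PZ, 90 of them in replicate 1. Aa_G568120.h1 was called higher on 10 counts in IV_PZ, all in replicate 1, and Aa_G718350.h1 on 199 counts, all in replicate 2.

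Aa_G464430.h1 had no count in IV_PZ and 0.867, 1.14 and 1.15 TPM in III_PZ, at least 101-fold lower in the later group (edgeR adjusted p = 8.13e-08). At the earlier ages it had 3.0 and 3.12 TPM in I_PZ replicates 1 and 2 and 3.09, 4.29 and 4.46 TPM in II_PZ, and it was at 9.85, 6.45, 10.9 and 14.3 TPM in IV_AZ_si and 12.3, 9.46 and 11.1 TPM in IV_AZ_if. Aa_G148020.h1 had no count in IV_PZ and 1.33, 1.67 and 1.2 TPM in III_PZ, at least 43.8-fold lower in the later group (edgeR adjusted p = 4.14e-06). These 2 targets were thus detected in young perennial stems and in both annual internodes, and not detected at this depth in the perennial zone of the same age as the annual internodes.

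Among the 12 that were higher at 30 weeks, Aa_G117990.h1, which shares reads, had 1.90, 2.07 and 2.89 TPM in IV_PZ and 0, 0.449 and 0.196 TPM in III_PZ, a log2 fold change of 3.40 ± 0.61 (SE, edgeR adjusted p = 0.000157), and 4.33 without III_PZ replicate 2. Aa_G87860.h1 had 3.26, 5.71 and 4.84 TPM in IV_PZ and 1.33, 0.427 and 0.258 TPM in III_PZ, a log2 fold change of 2.84 ± 0.43 (SE, edgeR adjusted p = 2.78e-05), and 3.81 without III_PZ replicate 1. Both had been lower in III_PZ than in II_PZ, by log2 fold changes of -3.04 ± 0.64 and -2.52 ± 0.44 (SE, edgeR adjusted p = 0.00057 and 0.000102). Their values in II_PZ were 0.682, 1.94 and 2.18 TPM and 2.16, 3.16 and 4.63 TPM, so III_PZ was the low point of the later 3 ages.

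**Figure D5:**
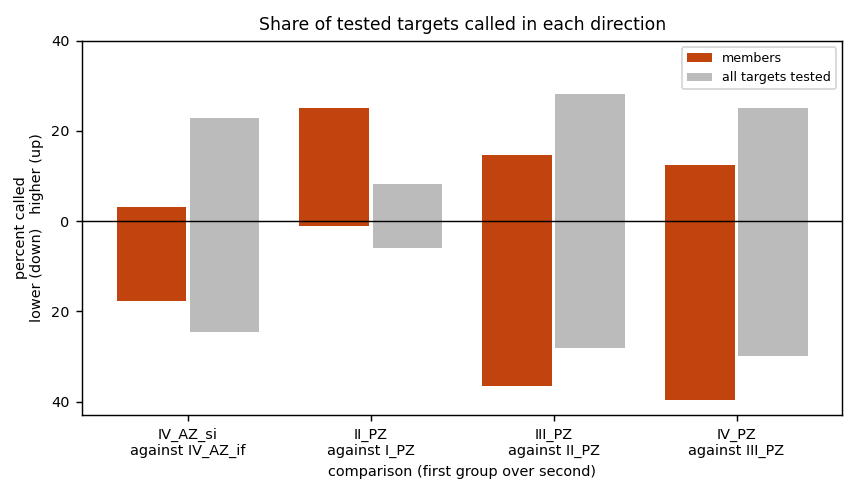
Percent of tested targets called higher (bars above 0) and lower (bars below 0) in the first group of each comparison, for the 96 members tested (orange) and for all 23904 targets tested (grey), also where members entered through other groups. The members have 25.0% higher against 8.29% for all targets from 4 to 5 weeks, a bar that rests on the single libraries named in the text, and 36.5% and 39.6% lower in the 2 later steps.

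The sequence of calls over the 3 steps was counted for the 59 members that pass the filter in each step's own libraries, beside the 20504 targets that do so. No step passed for 13 of these members (22.0%, against 19.8% of the targets), and 9 fell in the last step alone (15.3%, against 8.89%). A rise from 4 to 5 weeks and a fall from 7 to 30 weeks with no call between was found for 6 (10.2%, against 1.07%). Another 5 rose and then fell in both later steps (8.47%, against 1.42%), and 5 fell from 5 to 7 weeks and rose afterwards (8.47%, against 4.53%). Other sequences took a smaller share of the members than of the targets. Rises in both later steps alone were found for 0 (0.0%, against 8.98%), and a rise in the last step alone for 2 (3.39%, against 8.32%). A rise from 5 to 7 weeks alone was found for 3 (5.08%, against 8.68%). Falls in both later steps alone were found for 4 (6.78%, against 10.5%), and no call, a rise and then a fall for 2 (3.39%, against 6.31%). The sequences given are a selection. The first step's calls in these sequences rest on the single libraries named above. Aa_G52470.h1, the most abundant member by TPM, rose at 5 weeks (log2 fold change 0.67 ± 0.16, SE; edgeR adjusted p = 0.00864) and fell at 30 weeks (log2 fold change -1.60 ± 0.15, SE; edgeR adjusted p = 8.01e-08).

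Several of the members that differed between the annual internodes also changed with age, as most targets did. No step was called for only 22.0% of the members and 19.8% of the targets that pass the filter in each step. Aa_G329800.h1 rose in the first 2 steps and fell in the last, at 0.113 and 0.204 TPM in I_PZ replicates 1 and 2, 1.22, 1.27 and 2.52 TPM in II_PZ, 6.21, 7.47 and 8.20 TPM in III_PZ and 3.94, 3.16 and 4.24 TPM in IV_PZ. Aa_G167730.h1 went up and down in turn, at 24.4 and 17.3 TPM in I_PZ replicates 1 and 2, 55.0, 43.9 and 57.6 TPM in II_PZ, 18.1, 23.6 and 14.2 TPM in III_PZ and 44.0, 59.6 and 51.3 TPM in IV_PZ, and all 3 steps passed (edgeR adjusted p = 0.00122, 2.8e-06 and 9.34e-06). Aa_G266300.h1 had its one visible perennial level at 7 weeks, with 1.22, 0.974 and 1.15 TPM in III_PZ and at most 0.168 TPM in every other perennial library. Aa_G453050.h1 fell to 6.65, 8.07 and 7.16 TPM in IV_PZ, against 18.7, 24.3 and 22.8 TPM in III_PZ (log2 fold change -1.53 ± 0.18, SE; edgeR adjusted p = 1.4e-06), and was not called in the 2 earlier steps.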

How the data were processed

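Transcripts were quantified in 19 stranded mRNA libraries in 6 groups, and groups were taken from the library labels. The submitters' processing notes name bcl2fastq and kallisto, and versions, transcript reference and genome build were not given in the sources used here. The authors deposited estimated counts and TPM values per target for each library, per the file headers, and a table of TPM values for 30158 of the 34220 targets, whose values are identical to those of the library files. Reads that fit several targets are divided by kallisto, which makes counts of near-identical targets uncertain; targets are said to share reads if any library's count departs from whole numbers by more than 0.001.

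Members were found on the deposited TPM by the rule given above. The members, comparisons and lists were chosen with earlier results of these data known. Estimated counts were rounded and tested with edgeR 4.0.16 in R 4.3.3 (quasi-likelihood test, TMM scaling, default filter with a minimum count of 10 and a minimum total of 15) in 1 fit of 18 libraries, without I_PZ replicate 3, with the group as the only term. This left 23904 targets, among them 96 of the 98 members, and Benjamini-Hochberg adjustment ran over all of these targets. Standard errors came from the test statistic. Members of each step that pass the filter in its 2 groups alone were counted after the data were seen. Alternatives were RLE size factors, size factors of the TPM scale (each library's sum of counts divided by effective length), DESeq2 1.42.0, limma 3.58.1 on the log2 of TPM plus 1 or plus 0.1, no filter, only the 2 groups, all 19 libraries, a fold of at least 2, no targets that share reads, a replicate block, and each replicate left out. For single members 5 of these were added after the data were seen (TPM-scale size factors, log2 of TPM plus 0.1, no filter, only the 2 groups, no targets that share reads), and the last gives no value where the member shares reads.

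Depth of 21032841 to 27999048 counts per library sets the precision, and a floor of 3 counts over a group was used for targets with no count there. It covers counting error only. The labels call the libraries biological replicates of 12 plants, and nothing more says how cultures were separated, so p-values measure the spread between these libraries. No pairing by replicate number was seen: deviations from the group means correlated between same-numbered libraries at -0.0246 to 0.0487. With so few libraries per group this check cannot exclude a pairing. Named members were the 8 largest gaps, the 5 highest annual levels, those with no perennial count, in each comparison the largest called differences without overlap (up to 4 each way between annual internodes, and up to 2 each way between ages, with 1 TPM or more on the higher side), the 3 nearest each limit, and the 2 members for which I_PZ replicate 3 departed most. The 3 targets with a gap just under 1 were chosen after their values were seen.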

Additional observations from a re-analysis of the deposited data

Results flagged for a closer look

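The 34 named members were checked in IV_AZ_si for 1 library standing far from the rest, the only group of 4, and 3 of them had such a library, where chance flags about 5% of groups. IV_AZ_si replicate 1 held 229.9 TPM of Aa_G453050.h1, while the other replicates held 162, 167 and 172 TPM. The same library held 59.4 TPM of Aa_G329800.h1, while the others held 50.5, 50.8 and 50.7 TPM. Both are members called higher in IV_AZ_si than in IV_AZ_if, and both calls held without that replicate. IV_AZ_si replicate 4 held 41.6 TPM of Aa_G258350.h1, while the others held 30.2, 30.0 and 29.0 TPM, on 110 counts over the 4 libraries.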

How the results depend on the processing

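Over the counts reported, 145 of 167 alternative values lay within 1.5 times the main one. A gap of at least 2 left 31 members, and leaving out single libraries gave 85 to 106. Members higher in IV_AZ_si than in IV_AZ_if were 8 with TPM-scale size factors, 6 with only the 2 groups, 5 in DESeq2, and 11 and 5 in limma on log2(TPM + 1) and log2(TPM + 0.1), with 3 to 6 on leaving out a replicate. Members lower there were 9 with TPM-scale size factors, 10 without targets that share reads, 6 in limma on log2(TPM + 0.1), 7 at a fold of at least 2, and 10 to 18 on leaving out a replicate. From 4 to 5 weeks, leaving out a replicate of II_PZ gave 13 to 27 higher and 0 to 1 lower. In limma on log2(TPM + 1) there were 0 lower, against 1 in edgeR. From 5 to 7 weeks 8 members were higher without targets that share reads, and leaving out a replicate gave 12 to 16 higher and 32 to 39 lower. From 7 to 30 weeks it gave 8 to 14 higher and 35 to 39 lower. The cause was not tested, except that fewer members enter where targets that share reads or small folds are left out.

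Of single log2 fold changes, 501 of 557 alternative values were on the same side of 0 and of the threshold as the main one, 39 lost a call, 7 gained one and 10 turned sign without a call. Those 10 were IV_AZ_si over IV_AZ_if of Aa_G294520.h1 (-0.11 in edgeR; 0.062 with TPM-scale size factors, 0.069 and 0.071 in limma on log2(TPM + 1) and log2(TPM + 0.1), and -0.19 to 0.051 on leaving out a replicate, above 0 without IV_AZ_if replicate 1) and of Aa_G198440.h1 (0.01 in edgeR; -0.0005 with RLE size factors, -0.082 with the replicate block, and -0.099 to 0.20 on leaving out a replicate, below 0 without IV_AZ_si replicates 1 and 4 and IV_AZ_if replicates 2 and 3).

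With the replicate number as a block, 4 members were higher and 18 lower in IV_AZ_si than in IV_AZ_if, and the steps gave 19 and 1 for II_PZ, 13 and 36 for III_PZ, and 10 and 39 for IV_PZ. The block moved no count by over 1.5 times. The samples are known to share only a number. Same-numbered libraries correlated at -0.0168 to 0.0487 between the annual groups and at -0.0246 to 0.0249 between ages, which cannot exclude a pairing. Short members with under 100 counts over an annual group are limited by depth.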
